A study of Mus musculus with 3 samples.

Results

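The 10 genes described here encode ligands and receptors of PDGF, VEGF-C and angiopoietin signalling: Pdgfa, Pdgfb, Pdgfc, Pdgfd, Pdgfra, Pdgfrb, Vegfc, Angpt1, Angpt2 and Tek. They were taken by name, as the probe sets annotated with 1 of these symbols and no other, which gave 22 probe sets for 10 of the 18193 genes named on the array. The cells were C3H10T1/2, a mesenchymal line of mouse origin grown in α-MEM with serum, and their RNA was hybridised to Affymetrix mouse genome arrays. The 3 arrays held RNA from C3H10T1/2 cells with no vector, from C3H10T1/2 cells that a pMIGR retrovirus made express the fluorescent protein Venus (C3H10T1/2-V, called Venus here), and from C3H10T1/2 cells that the same vector made express Venus-Mkx (C3H10T1/2-VM, called Venus-Mkx here), Mkx being the homeobox transcription factor Mohawk. Virus was given in medium with puromycin, an agent that is not stated for the cells with no vector. Each condition had 1 array, so no difference below has a replicate check, an error or a p-value.

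Platelet-derived growth factors are secreted dimers that bind the receptor tyrosine kinases PDGFRα and PDGFRβ on mesenchymal cells and pericytes, where they drive proliferation and migration. VEGF-C acts mainly on lymphatic endothelium through Flt4. Angiopoietins are ligands of the endothelial receptor Tie2, the product of Tek, with Angpt1 an agonist and Angpt2 a ligand whose effect depends on context.

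The values are log2 probe set values, and a difference of 1 between arrays is a 2-fold difference. The median of all values, 4.34, was taken as a level floor, and a value below it is called below the floor because a probe set at that level may not be measuring its gene. Levels of different probe sets are not set against each other. The Mkx probe set 1437492_at read 6.88 in C3H10T1/2 cells, 7.43 with Venus and 2.71 on the array labelled Venus-Mkx, which goes against that label, and it was not settled here whether this probe set lies within the coding sequence that the vector carried, in which case alone it could check the label. Every direction below is therefore that of the array labelled Venus-Mkx. Spread was taken over the 11169 genes with a value at or above the floor on at least 1 array, with 1 probe set per gene. Differences between the control arrays had a standard deviation of 0.34 there, and those between Venus-Mkx and Venus one of 0.94.

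In the array labelled Venus-Mkx, 5 of the 10 genes read at least 2-fold higher than in both control arrays (Pdgfa, Pdgfb, Pdgfc, Vegfc and Tek), 1 read at least 2-fold lower (Pdgfd), and 4 did neither (Pdgfra, Pdgfrb, Angpt1 and Angpt2). Of all 18193 genes, 4.36% passed this rule upwards and 3.29% passed it downwards. Of the 11169 genes with a value at or above the floor on at least 1 array, 6.82% were higher and 5.34% were lower, and 9 of the 10 genes belong to this set, Angpt2 being the exception and Vegfc belonging to it only through its value in Venus-Mkx. The share of these genes that was higher lay above both backgrounds, but the genes were chosen with earlier results of these data known. The median difference over the 10 genes was 0.63 from Venus and 0.81 from C3H10T1/2, where the median of all genes was 0 in each case. In a bulk RNA sample, more cells expressing a gene and more of its RNA per cell cannot be told apart.

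**Figure D1:**
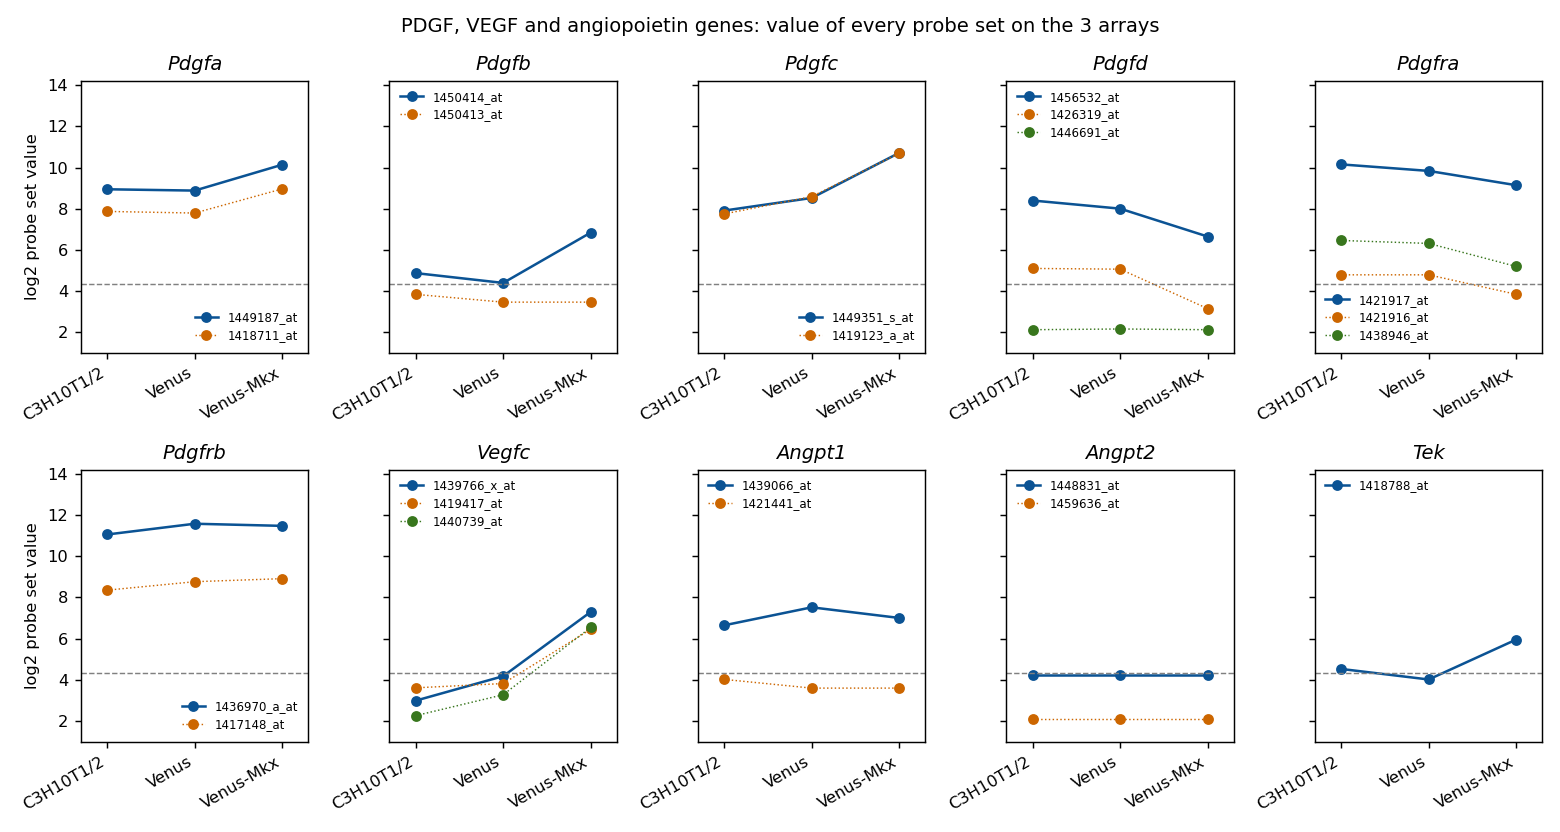
Log2 value of each of the 22 probe sets (vertical axis) on the arrays of C3H10T1/2, Venus and Venus-Mkx (horizontal axis), 1 panel per gene and 1 point per array. The thick line joins the values of the probe set that stands for the gene, thin dotted lines join those of the others, and the dashed line is the floor of 4.34. By the thick lines Pdgfa, Pdgfb, Pdgfc, Vegfc and Tek are highest in Venus-Mkx, Pdgfd and Pdgfra are lowest there, and Angpt2 is level.

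Promoter sequences are shown for 5 of the 6 genes that were at least 2-fold apart from both controls, Pdgfb having no entry in the table used, so that the bases upstream of their starts can be read beside the values. From the RefSeq promoter table of build GRCm38.p6, 7 entries for 6 of the 10 genes were used. The 250 bases before each annotated start of the 5 genes are printed 5′ to 3′ on the strand of the gene, in lower case. Capitals mark any match, on either strand, to TGACAG (a core bound by some TALE homeobox proteins), GGGCGG (the GC box), TATAAA (the TATA box), CACGTG (the E-box), TGACGTCA (the cyclic AMP response element) or GCGTG (the core of the hypoxia response element). Mohawk belongs to the TALE class, but whether it binds TGACAG was not tested. Pdgfa has 2 annotated starts.
Pdgfa, first start, chr5:138994282-138994531, minus strand: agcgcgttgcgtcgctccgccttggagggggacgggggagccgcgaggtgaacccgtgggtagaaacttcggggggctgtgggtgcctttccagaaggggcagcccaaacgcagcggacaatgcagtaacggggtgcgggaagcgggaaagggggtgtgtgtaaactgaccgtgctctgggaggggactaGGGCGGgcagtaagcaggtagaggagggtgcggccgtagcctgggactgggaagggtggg
Pdgfa, second start, chr5:138994945-138995194, minus strand: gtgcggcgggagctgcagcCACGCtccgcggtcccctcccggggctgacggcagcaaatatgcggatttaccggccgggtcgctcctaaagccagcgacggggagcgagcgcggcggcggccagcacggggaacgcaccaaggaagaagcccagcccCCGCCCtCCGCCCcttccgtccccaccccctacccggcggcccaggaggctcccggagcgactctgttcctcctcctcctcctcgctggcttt
Pdgfc, chr3:81036166-81036415, plus strand: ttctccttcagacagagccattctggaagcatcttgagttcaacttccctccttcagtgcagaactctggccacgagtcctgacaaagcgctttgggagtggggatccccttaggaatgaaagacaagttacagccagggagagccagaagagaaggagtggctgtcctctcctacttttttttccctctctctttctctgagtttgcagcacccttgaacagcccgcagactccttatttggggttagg
Pdgfd, chr9:6168236-6168485, plus strand: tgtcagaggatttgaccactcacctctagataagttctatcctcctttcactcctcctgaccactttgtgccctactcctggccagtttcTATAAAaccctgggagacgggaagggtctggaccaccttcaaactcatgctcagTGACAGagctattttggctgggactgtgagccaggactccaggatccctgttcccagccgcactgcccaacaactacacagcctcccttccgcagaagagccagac
Vegfc, chr8:54077282-54077531, plus strand: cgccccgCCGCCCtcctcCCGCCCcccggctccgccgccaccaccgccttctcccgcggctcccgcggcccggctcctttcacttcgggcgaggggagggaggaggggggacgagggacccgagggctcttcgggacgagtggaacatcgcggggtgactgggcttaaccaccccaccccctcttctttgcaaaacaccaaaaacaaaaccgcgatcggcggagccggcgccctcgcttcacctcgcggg
Tek, chr4:94739039-94739288, plus strand: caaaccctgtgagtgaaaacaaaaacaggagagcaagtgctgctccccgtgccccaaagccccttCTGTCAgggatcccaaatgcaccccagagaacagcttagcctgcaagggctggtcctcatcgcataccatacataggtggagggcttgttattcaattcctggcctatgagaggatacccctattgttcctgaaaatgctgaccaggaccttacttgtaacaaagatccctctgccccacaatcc

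These windows differed in base composition. GC content was 66.4% and 72.4% before the Pdgfa starts and 71.6% before that of Vegfc, against a median of 52.4% over the 32851 promoters of the table, while it was 50.8% for Pdgfc, 53.6% for Pdgfd and 51.2% for Tek. GGGCGG lay once before the first Pdgfa start, at position -60 counted from the start, and in 2 places before the second (-93 and -86) and before the Vegfc start (-243 and -232). This motif is in 32.7% of all promoters of the table over the same 250 bases. TGACAG, which is in 15.9% of all promoters, was found before Pdgfd, at -106, and in reverse before Tek, at -185. Pdgfd also held TATAAA at -160, a motif in 12.4% of promoters, and the second Pdgfa window held GCGTG in reverse at -231, a motif in 28.2%. CACGTG (6.02% of promoters) and TGACGTCA (1.55%) were in none of these windows, and the Pdgfc window held none of the 6 motifs. The single Pdgfra window, not printed, had a GC content of 54.4% and no match. A match describes the letters only.

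Of the 4 PDGF ligand genes, 3 were higher in Venus-Mkx and 1 was lower. Pdgfc and Pdgfd encode ligands that are secreted in latent form and activated by proteases, whereas the Pdgfa and Pdgfb products are processed before secretion.

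Pdgfa, whose product binds PDGFRα, read 8.94 in C3H10T1/2 cells, 8.88 with Venus and 10.14 with Venus-Mkx with the probe set 1449187_at. The control arrays lay close together and Venus-Mkx was above both, by 1.26 (2.39-fold) over Venus and by 1.19 (2.29-fold) over C3H10T1/2. The second probe set, 1418711_at, read 7.87, 7.79 and 8.96 in the same order, and its differences were 1.17 and 1.09. Both probe sets therefore passed 2-fold, and Pdgfa ranked 620 from the top of the 11169 genes by its difference from Venus.

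Pdgfb encodes the PDGF subunit that binds both receptors and that endothelial cells use to recruit pericytes. Its probe set 1450414_at read 4.87 in C3H10T1/2 cells, 4.40 with Venus and 6.84 with Venus-Mkx. The controls were near the floor and Venus-Mkx was clearly above it, by 2.44 (5.44-fold) over Venus and 1.97 (3.91-fold) over C3H10T1/2. The other probe set, 1450413_at, read 3.84, 3.46 and 3.46, below the floor on all arrays, and did not repeat the difference. With the mean of both probe sets Pdgfb was 1.22 above Venus but only 0.79 above C3H10T1/2, short of 2-fold.

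Pdgfc, whose product also binds PDGFRα, had its lowest value in C3H10T1/2 and its highest in Venus-Mkx. The probe set 1449351_s_at read 7.91 in C3H10T1/2 cells, 8.52 with Venus and 10.71 with Venus-Mkx, a difference of 2.19 (4.56-fold) from Venus and 2.80 (6.98-fold) from C3H10T1/2. The other, 1419123_a_at, read 7.75, 8.59 and 10.69, with differences of 2.10 and 2.94. Venus was itself above C3H10T1/2, by 0.61 and 0.84 with these probe sets, so that the size of the Pdgfc difference depended on the control used.

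Pdgfd, a ligand of PDGFRβ, was the gene of the 10 that was lower in Venus-Mkx. The probe set 1456532_at read 8.40 in C3H10T1/2 cells, 8.00 with Venus and 6.65 with Venus-Mkx, a difference of -1.36 from Venus (2.56-fold lower) and -1.75 from C3H10T1/2 (3.36-fold lower). A second probe set, 1426319_at, read 5.10, 5.06 and 3.15, so both controls were above the floor and Venus-Mkx was below it. With that value set to the floor, it differed by -0.72 from Venus and -0.76 from C3H10T1/2, short of 2-fold. The last, 1446691_at, read 2.13, 2.16 and 2.13, below the floor throughout. Ranked by its difference from Venus, Pdgfd was 482 from the bottom of the 11169 genes.

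The receptor genes Pdgfra and Pdgfrb did not pass the 2-fold rule with the probe sets that stand for them. Pdgfra, which encodes a receptor for PDGF-A, PDGF-B and PDGF-C, read 10.15 in C3H10T1/2 cells, 9.84 with Venus and 9.14 with Venus-Mkx with 1421917_at. Venus-Mkx was the lowest of the 3 arrays, 1.62-fold lower than Venus and 2.01-fold lower than C3H10T1/2. Its probe set 1438946_at read 6.46, 6.32 and 5.20, which is past 2-fold from both controls, at -1.12 from Venus and -1.26 from C3H10T1/2. The remaining one, 1421916_at, read 4.79, 4.79 and 3.84, and its value in Venus-Mkx was below the floor. All 3 Pdgfra probe sets were thus lowest in Venus-Mkx, and 1 of them passed 2-fold.

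Pdgfrb, the receptor for PDGF-B and PDGF-D and a pericyte marker, read 11.06 in C3H10T1/2 cells, 11.58 with Venus and 11.47 with Venus-Mkx with 1436970_a_at. The Venus-Mkx value lay between those of the controls. With 1417148_at the values were 8.35, 8.76 and 8.91, so Venus-Mkx was 0.15 above Venus and 0.56 above C3H10T1/2. The sign of the difference from Venus was not the same for both probe sets, and neither difference from Venus was larger than the standard deviation between the controls.

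**Figure D2:**
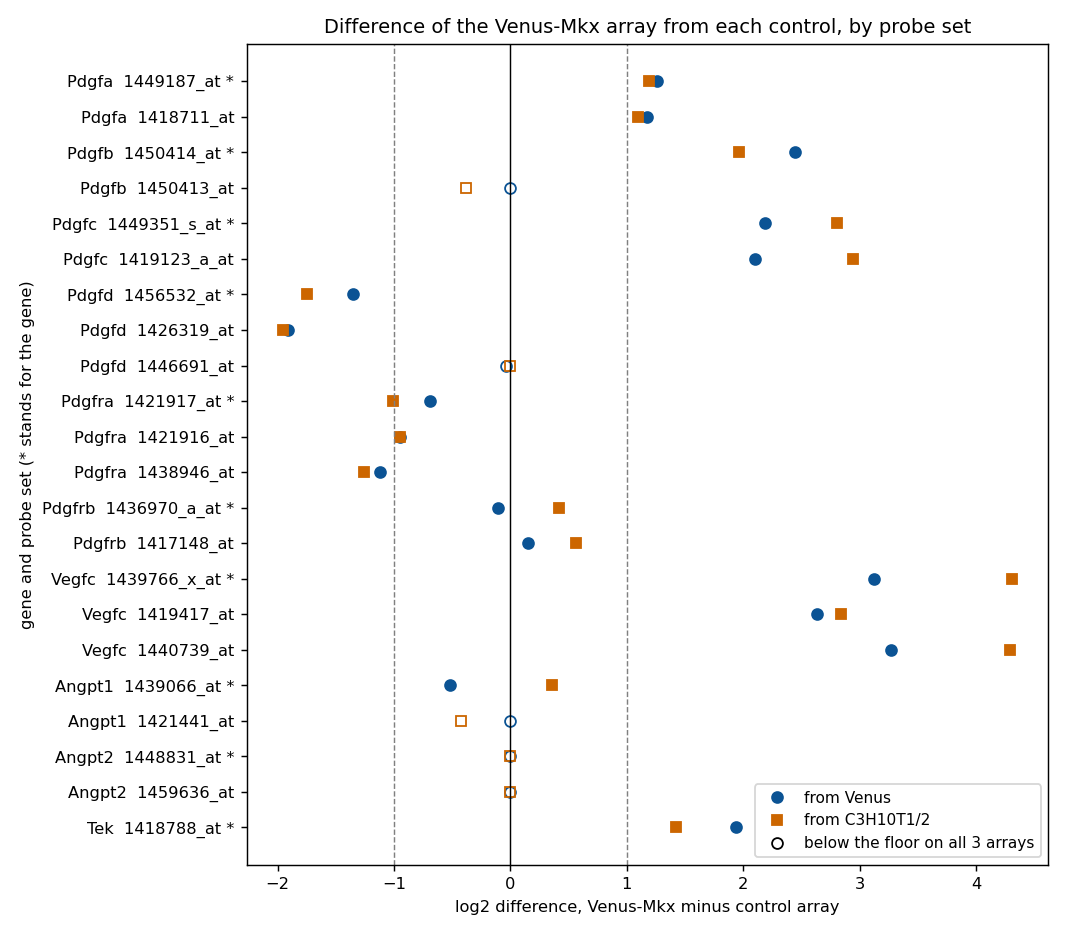
Log2 difference of each probe set (horizontal axis) between the array labelled Venus-Mkx and Venus (circles) or C3H10T1/2 (squares), by gene and probe set (vertical axis, an asterisk marking the one that stands for the gene). Open symbols are probe sets below the floor on all arrays, and the dashed lines are 2-fold in either direction. All 3 Vegfc probe sets and both Pdgfc and Pdgfa probe sets lie past 2-fold from both controls, whereas Pdgfb has 1 probe set past it and 1 that is not.

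Vegfc gave the largest difference of the 10 genes, from control values that were all below the floor. The probe set 1439766_x_at read 2.99 in C3H10T1/2 cells, 4.18 with Venus and 7.30 with Venus-Mkx. The values of 1419417_at were 3.61, 3.82 and 6.45, and those of 1440739_at were 2.26, 3.27 and 6.55. On every one of these probe sets the controls were below the floor and Venus-Mkx was above it. Because a control below the floor has no firm level, the folds are lower bounds taken against the floor, and Venus-Mkx was at least 7.75-fold, 4.32-fold and 4.61-fold higher with the probe sets in the order given.

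Angpt1 and Angpt2 did not follow Vegfc. Angpt1 read 6.65 in C3H10T1/2 cells, 7.52 with Venus and 7.00 with Venus-Mkx with 1439066_at, so that Venus-Mkx lay between the controls, which were themselves 0.87 apart. The other Angpt1 probe set, 1421441_at, was below the floor on all arrays, at 4.02, 3.60 and 3.60. The Angpt2 probe sets 1448831_at and 1459636_at held the same value on all 3 arrays, 4.25 and 2.09, below the floor. At this signal over background, no Angpt2 difference was detectable.

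Tek was higher in Venus-Mkx on its only probe set. 1418788_at read 4.53 in C3H10T1/2 cells, 4.02 with Venus and 5.95 with Venus-Mkx. Venus was below the floor and C3H10T1/2 just above it, and Venus-Mkx was 2.69-fold higher than C3H10T1/2 and at least 3.06-fold higher than Venus. The value in Venus-Mkx was also below the 75th percentile of all values, 7.15, as were those of Pdgfb, and no second probe set is there to compare.

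**Figure D3:**
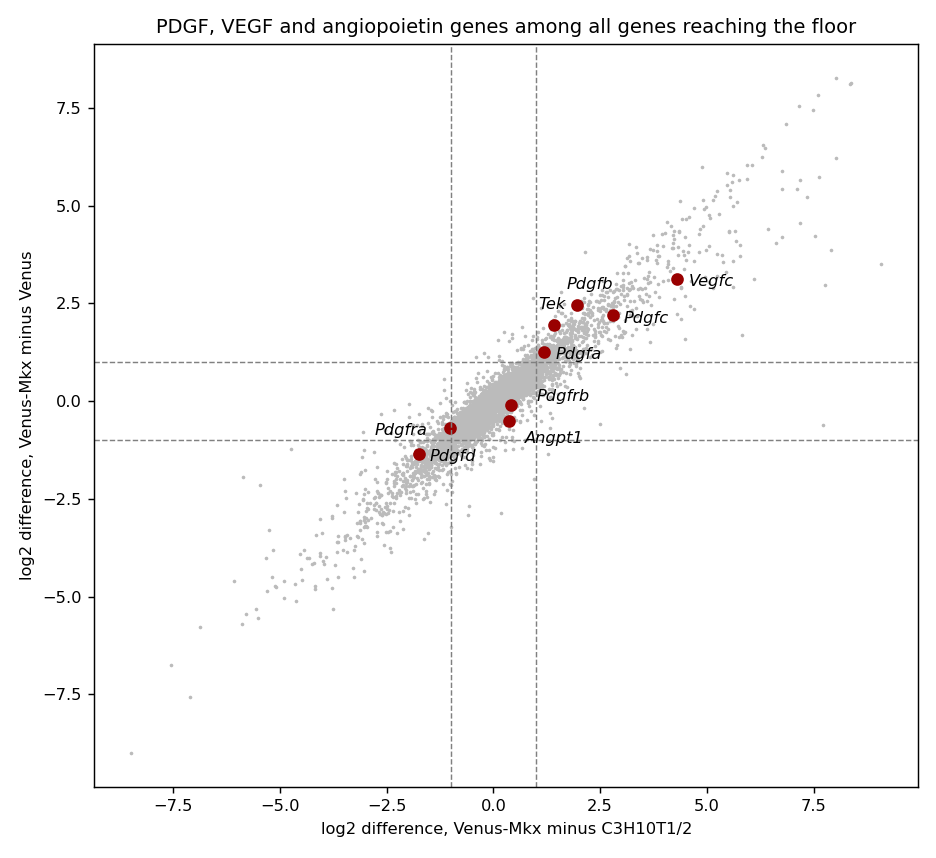
Log2 difference of the array labelled Venus-Mkx from C3H10T1/2 (horizontal axis) and from Venus (vertical axis) for the 11169 genes with a value at or above the floor (grey points), with the 9 of the 10 genes that belong to this set named. The dashed lines are 2-fold, the axes share the Venus-Mkx array, and Vegfc (plotted as read, with both controls below the floor), Pdgfc, Pdgfb, Tek (Venus below the floor) and Pdgfa lie past 2-fold higher on both.

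The control arrays can be set against each other for the same genes. At 2-fold, 1.29% of all genes differed between Venus and C3H10T1/2, and 1 of the 10 genes did, Vegfc, by 1.19 with both values below the floor. The next were Angpt1, at 0.87, and Pdgfc, at 0.61. For Pdgfc Venus thus lay on the side of Venus-Mkx, and for Tek (4.53 against 4.02) and Pdgfb (4.87 against 4.40) away from it.

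Other genes of the pathways were counted from lists chosen with earlier results known, in the same way. Of 8 other VEGF family ligands, receptors and co-receptors, none was higher, 1 was lower and the median differences were -0.45 from Venus and -0.26 from C3H10T1/2. The 1 was Vegfd, the closest relative of Vegfc. Its probe set 1438954_x_at read 8.28 in C3H10T1/2 cells, 8.56 with Venus and 5.80 with Venus-Mkx, a difference of -2.77 from Venus and -2.48 from C3H10T1/2, and all 3 Vegfd probe sets passed 2-fold. Vegfc and Vegfd, which share the receptor Flt4, were therefore on opposite sides of both controls. Flt1, a VEGF receptor, read 6.85, 6.51 and 5.55, just short of 2-fold from Venus, and its probe set 1419300_at was past 2-fold with differences of -1.40 and -1.53.

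Of 6 other angiopoietin and Tie pathway genes, 1 was higher and 1 lower, and the medians were 0. Angpt4, a further Tie2 ligand, read 4.35 in C3H10T1/2 cells, 4.39 with Venus and 7.04 with Venus-Mkx, a difference of 2.65 from Venus and 2.69 from C3H10T1/2. Its controls were at the floor. Svep1, a large matrix protein of the Tie1 pathway, read 9.06, 8.72 and 7.16 a difference of -1.56 from Venus and -1.90 from C3H10T1/2. The direction thus differed between genes of this pathway, with Tek and Angpt4 higher, Svep1 lower and Angpt1 between the controls.

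Of 4 angiopoietin-like genes found, 1 was higher. Angptl4, a secreted inhibitor of lipoprotein lipase, read 6.18, 6.44 and 7.91 with 1417130_s_at, 1.47 above Venus and 1.73 above C3H10T1/2, and its other probe set read 2.00 on all arrays. Angptl6 read 5.03, 4.88 and 4.91, with no array standing apart.

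Of 9 genes of ligand processing and binding that were found, 2 were higher and none was lower, with medians of 0. Pcsk6, a proprotein convertase, read 6.58 in C3H10T1/2 cells, 6.14 with Venus and 7.71 with Venus-Mkx, 1.57 above Venus and 1.13 above C3H10T1/2. Plat, the tissue plasminogen activator, which activates PDGF-C, read 6.78, 7.92 and 9.04. Venus-Mkx was 1.12 above Venus and 2.26 above C3H10T1/2, and the controls were 1.14 apart. The other Plat probe set, 1458553_at, was at 3.56 on all arrays, and with the mean of both Plat was 0.56 above Venus, short of 2-fold. With 1415806_at, Plat ranked the arrays from C3H10T1/2 through Venus to Venus-Mkx, as Pdgfc did. Vegfc, Angptl4, Slc9a3r1 and Col1a1 held the same order, and a link between Plat and Pdgfc was not tested.

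Downstream of the receptors, 1 of 24 adaptor and effector genes was higher and none was lower, and the median differences were 0.012 from Venus and 0.051 from C3H10T1/2. Slc9a3r1, a scaffold that binds the tail of PDGF receptors, read 7.82, 8.15 and 9.63, which is 1.48 above Venus and 1.81 above C3H10T1/2, and all 3 of its probe sets passed 2-fold. Stat3, a transcription factor of cytokine and growth factor signalling, read 8.62, 8.48 and 9.42, short of 2-fold. Of 10 feedback inhibitors, 1 was lower and none higher, with medians of -0.17 and -0.15. Errfi1, an inhibitor of the EGF receptor, read 8.16, 8.95 and 6.57, -2.38 from Venus and -1.58 from C3H10T1/2 (its other probe set differed by -0.86 and -0.30), while Dusp6, a phosphatase of ERK, read 8.45, 8.87 and 7.51 and was past 2-fold from Venus alone.

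**Figure D4:**
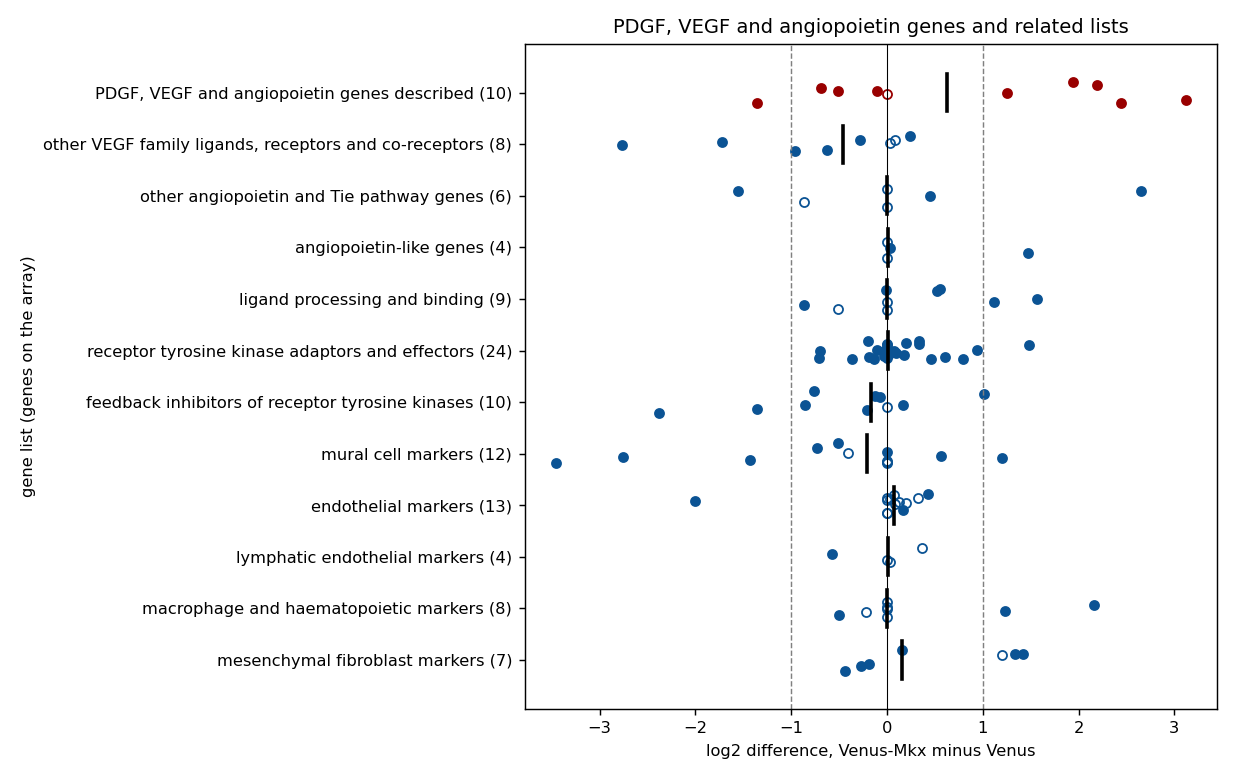
Log2 difference of the array labelled Venus-Mkx from Venus (horizontal axis) for each gene of the 10 described and of the related lists (vertical axis, with the number of genes on the array), 1 point per gene. Open points mark genes that never reached the floor, black bars are list medians and dashed lines are 2-fold. Most genes of the adaptor and effector list lie close to 0, whereas the 10 genes spread from Pdgfd, at -1.36, to Vegfc, which is plotted as read with Venus below the floor.

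PDGF receptors and Tek are also read as marks of cell types, so marker lists were counted on the same arrays. Of 12 mural cell markers, 3 were lower and 1 was higher, where 3.29% of all genes were lower and 4.36% higher. The lower ones were Cspg4, the pericyte proteoglycan NG2, which read 9.60, 9.41 and 5.95, the contractile actin Acta2, which read 13.04, 13.17 and 10.42, and the calponin gene Cnn1, which read 5.26, 5.67 and 4.24, the last value below the floor. Cnn1 differed by only -0.91 from C3H10T1/2 with values below the floor set to it, and then no longer passed 2-fold. Anpep was higher, at 3.63, 4.51 and 5.71, with C3H10T1/2 below the floor. Pdgfrb, by contrast, lay between the controls, and the mean log2 value of the 12 markers was 5.83, 6.01 and 5.38 in C3H10T1/2, Venus and Venus-Mkx. Rgs5, Abcc9, Kcnj8 and Myh11 were below the floor on all 3 arrays. Des read 4.87 throughout, and Mcam, Notch3 and Tagln were less than 2-fold from each control. Of these, Mcam read above both controls, at 5.75, 5.69 and 6.25, and Tagln below both, at 9.43, 9.59 and 8.86.

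Of 13 endothelial markers, none was higher and 1 was lower, and their mean log2 value was 3.85, 3.69 and 3.65 in the same order. Pecam1, Cdh5, Emcn, Vwf, Cldn5, Esam, Sox17, Plvap, Tie1 and Kdr were below the floor on all 3 arrays. The lower one was Erg, an endothelial transcription factor, which read 6.30, 4.81 and 2.81, the last value below the floor, and its other probe set was at 3.63 throughout. With values below the floor set to it, Erg differed by -0.47 from Venus and no longer passed 2-fold. Eng, which mesenchymal cells also express, read 7.28, 7.12 and 7.55, and Egfl7 read 5.82, 5.82 and 5.99, so that both were above the floor on all arrays. No endothelial marker of the list was 2-fold higher beside Tek.

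None of the 4 lymphatic endothelial markers passed 2-fold, and Pdpn, the single gene of them to reach the floor, read 10.13, 10.35 and 9.78. Of 8 macrophage and haematopoietic markers, 2 were higher. Csf1r read 4.45 in C3H10T1/2 cells, 5.39 with Venus and 6.62 with Venus-Mkx with 1419872_at, but its other probe sets differed by no more than 0.97. Lyz2, the lysozyme gene, read 4.39, 5.14 and 7.30. Cd14 was above the floor on all arrays, at 6.62, 6.99 and 6.49, with no array 2-fold apart. Ptprc, Cd68, Adgre1, Fcgr3 and Itgam were below the floor on all arrays, and the mean log2 value of the 8 was 3.68, 3.93 and 4.27. The part of these markers in the values of the 10 genes was not tested.

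Of 7 mesenchymal fibroblast markers found, 3 were higher and none was lower. The surface glycoprotein gene Thy1 read 7.27, 7.26 and 8.68, 1.42 above Venus and 1.41 above C3H10T1/2. Col1a1, of type I collagen, read 11.52, 11.88 and 13.22 with 1423669_at. Its other probe set, 1455494_at, was 0.82 above Venus, short of 2-fold, and 1.27 above C3H10T1/2. The remaining one, Fap, passed with values below the floor on all arrays. Col1a2, Fn1, Vim and S100a4 were above the floor on every array and less than 2-fold from each control. Among them Col1a2 read above both controls in Venus-Mkx, and Fn1, Vim and S100a4 read below both.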

How the data were processed

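RNA labelled by the GeneChip 3′ IVT Express kit was hybridised to 1 array per condition. The authors deposited log2 probe set values, which run from 1.44 to 14.00. The methods name MAS 5.0 for the summary and the submitters' processing notes name RMA, with no version given in the sources used here. On all 3 arrays alike, 24.6% of probe sets had 1 unchanged value. The deposited values were used with no further normalization.

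Of 45101 probe sets, 64 controls were left out, and 34945 had 1 annotated symbol, 932 several and 9160 none. Where a gene had several probe sets, the one with the highest mean over the 3 arrays stood for it, and every probe set of the 10 genes was reported. The floor, the median of all values, was 4.34. The number of arrays limits the precision. A gene was called higher or lower when it was at least 2-fold apart from both controls in the same direction.

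The genes and lists were chosen with earlier results of these data known. From each list, up to 4 genes past 2-fold with the largest difference from the nearer control were named, or, with fewer than 2 such genes, the 2 that differed most among those reaching the floor. Detection calls were not used here. Alternatives were the mean of all probe sets, leaving out _x_at and _s_at probe sets, centring, quantile normalization, other floors, other controls and other fold thresholds. Promoters came from the RefSeq table of GRCm38.p6, with no entry used for Pdgfb, Pdgfrb, Angpt1 and Angpt2. Calculations used Python 3.11.15, NumPy 2.4.6, pandas 2.3.3 and matplotlib 3.10.9. The counting rule was run on simulated data with equal noise for all genes and planted changes larger than 2-fold. That run did not cover true changes near 2-fold or genes that never reached the floor.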

Additional observations from a re-analysis of the deposited data

How the results depend on the processing

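With the mean of all probe sets, the small difference of Pdgfrb from Venus went from -0.10 to 0.022 and that of Angpt1 from C3H10T1/2 from 0.36 to -0.033, while no gene of the 10 that passed 2-fold changed direction under the alternatives run. The count of genes at least 2-fold higher than both controls, 5, was the same without _x_at and _s_at probe sets, with centred arrays, with quantile normalization, with values below the floor set to it, against either control alone, against their mean and at 1.5-fold. It was 4 with the mean of all probe sets, which left out Pdgfb, 3 at 3-fold (Pdgfb, Pdgfc and Vegfc), and 2 when values below the 75th percentile were set to it (Pdgfa and Pdgfc), which by its construction hides differences at low levels. The count of lower genes, 1, became 2 with Pdgfra against C3H10T1/2 alone and at 1.5-fold, and 0 at 3-fold and with the 75th percentile. The count of genes 2-fold apart between the controls, 1, was 0 with the mean of all probe sets, without _x_at and _s_at probe sets, with either floor and at 3-fold, and 3 at 1.5-fold. The median differences of 0.63 and 0.81 were both 0 with the 75th percentile as floor. Of 120 recomputed differences of the 10 genes, 100 moved by less than 0.244, the standard deviation per array estimated from the controls, and 20 moved by more. That estimate is a spread over genes and treats the controls as replicates, which they were not, so it is not a measurement error. No paired analysis was possible because each condition had 1 array. Signal over background limits Vegfc, Tek, Pdgfb and Angpt2 most, whose control values lay near or below the floor.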
